A study of Arabidopsis thaliana with 6 samples.

Results

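Heat shock proteins and the factors that control them were followed in Arabidopsis thaliana seedlings given dexamethasone for 4 h, which moves a receptor fusion of the transcription factor TCP5 into the nucleus, and in mock-treated seedlings. The 39 genes were chosen by identifier from families known for the heat response, out of 38194 loci listed per library. This choice was made with earlier results of these data known. They comprised 7 transcriptional regulators, the disaggregase gene HSP101, 13 small heat shock protein genes, 5 cytosolic HSP70 genes, 3 cytosolic HSP90 genes, 4 chaperone genes of the endoplasmic reticulum (ER), 3 co-chaperone genes and 3 other thermotolerance genes. From textbook knowledge, 29 of them were classed as heat-inducible, 6 as constitutive in the cytosol and 4 as ER genes. All 39 passed the filter on low counts.

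Heat shock proteins are molecular chaperones. Small heat shock proteins hold unfolded proteins, HSP70 with its DNAJ partners refolds them, HSP101 pulls them out of aggregates, and HSP90 matures signalling proteins. In plants, class A heat shock factors (HSFs) bind repeats of the heat shock element upstream of these genes when proteins misfold, and several class B factors act as repressors. The animal glucocorticoid receptor is itself a client of HSP90: without hormone it is held in the cytosol in a complex with HSP90 and its partners, and ligand binding frees it to enter the nucleus.

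The seedlings carried 35S:GR-TCP5, in which TCP5, a CIN-class TCP factor, is fused with the ligand-binding portion of that receptor (GR) and driven by the broadly active 35S promoter. They were 12 days old and received dexamethasone (DEX), the receptor's ligand, or a mock solution with the same 0.1% ethanol and 0.015% silwet and no DEX, for 4 h. Both groups carried the fusion protein. No plants without it were among the samples, so an effect of DEX on heat shock genes cannot be told apart from an effect of TCP5 or of the fusion leaving its chaperones. The DEX concentration is labelled as 10 mM, a unit that is in doubt because micromolar doses are usual. Plants grew at 22 °C, and none was labelled as heated. Each group held 3 libraries, replicates 1 and 2 from a first sequencing run and replicate 3 from a second, by the dates in the labels. The labels name no separate cultures, so the p-values given here reflect only how much these libraries vary.

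Libraries held 33428836 to 76859163 exon counts. TCP5 itself was at 323, 296 and 1177 CPM (counts divided by the TMM-adjusted library size) in mock replicates 1, 2 and 3 and at 233, 263 and 964 CPM with DEX, where the transgene and the native gene are counted together. The 2 runs also differed in root marker RNA. Of 17 root marker genes, 5 to 9 had 0 counts in each first-run library and none did in the second run. EXPA7, RHD6 and PLT1 were at 0 in all 4 first-run libraries. The summed root marker level was 562, 724 and 3342 CPM with mock and 372, 306 and 1225 CPM with DEX. All 6 leaf markers were detected in every library, at a summed 26753 to 35613 CPM. The summed root marker level was thus lower with DEX in each run. Of 10 root markers tested, 7 had a log2 fold change, DEX over mock, below 0 in the first run and 9 in the second. Over all genes these shares were 50.1% and 49.9%. With all 6 libraries, 2 of the 10 fell (edgeR, Benjamini-Hochberg adjusted p under 0.05), where 3.58% of all genes fell. The 10 had a median log2 fold change of −1.38. The part of root RNA in the values of the heat shock genes was not tested. In such bulk samples, fewer cells of a type, less RNA per cell and a change in the marker genes themselves cannot be told apart.

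Because HSFs act through heat shock elements, the 250 bases before each annotated gene start were searched on both strands in the TAIR10.1 genome with its RefSeq annotation. The 3-unit element, which reads GAA, any 2 bases, TTC, any 2 bases, GAA on one strand and TTC, any 2 bases, GAA, any 2 bases, TTC on the other, was present upstream of 5 of 39 members (12.8%), and of 106 of 27437 protein-coding genes (0.386%). All 5 were heat-inducible members. The stretches around these elements are shown because 2 of the 6 genes that fell after DEX, HSFA7A and GOLS1, are among them. Each reads 5′ to 3′ on the gene's own strand, with the element in capitals.
HSFA2, + strand, chr2:11135524-11135560: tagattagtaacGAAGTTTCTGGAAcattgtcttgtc
HSFA7A, + strand, chr3:19264937-19265023: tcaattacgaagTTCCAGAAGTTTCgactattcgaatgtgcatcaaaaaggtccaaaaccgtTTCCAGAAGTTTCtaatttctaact
HSP17.4, − strand, chr3:16984868-16984978: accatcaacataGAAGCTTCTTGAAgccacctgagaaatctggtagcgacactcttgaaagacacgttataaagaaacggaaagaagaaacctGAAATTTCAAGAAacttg
AT1G53540, + strand, chr1:19980234-19980270: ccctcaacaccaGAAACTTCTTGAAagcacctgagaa
GOLS1, − strand, chr2:19370554-19370590: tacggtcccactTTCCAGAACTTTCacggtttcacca
HSFA7A and HSP17.4 each held 2 copies. The copy nearest to the gene start ended 75 bases before it for HSFA2, 129 for HSFA7A, 5 for HSP17.4, 40 for AT1G53540 and 87 for GOLS1.

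A looser search for 2 units, GAANNTTC or TTCNNGAA, was chosen after the values were seen, and its matches include those of the 3-unit element. It matched 13 of 29 heat-inducible members (44.8%), 0 of 6 constitutive and 0 of 4 ER members, against 4432 of all 27437 genes (16.2%). BAG6, which also fell, held 1 such match.
BAG6, + strand, chr2:18986087-18986118: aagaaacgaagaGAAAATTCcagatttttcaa
The letters GTGGNCCC, a class II TCP binding site, were found upstream of 0 of 39 members and of 184 of all genes (0.671%). That says only that these letters were not in these windows.

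After DEX, 6 of the 39 genes fell and 0 rose, where 3.58% of 21934 tested genes fell and 1.09% rose (edgeR quasi-likelihood test, Benjamini-Hochberg adjusted p under 0.05). The 6 were HSFA7A, HSFB1, HSP101, HSP90.3, BAG6 and GOLS1. The estimate lay below 0 for 38 of 39 genes, against 49.3% of all genes, and 23 of 39 were lower at an unadjusted p under 0.05, against 11.8% of all genes. The median log2 fold change, DEX over mock, was −0.58 for the 39 genes and 0.00 for all genes. Because the members were chosen with earlier results known, these shares, and those by run below, describe the list and are no test of it. AT1G52560, a small heat shock protein gene of 11 to 45 counts per library, was the one gene above 0, at 0.56 ± 0.47 (SE, adjusted p = 0.587).

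**Figure D1:**
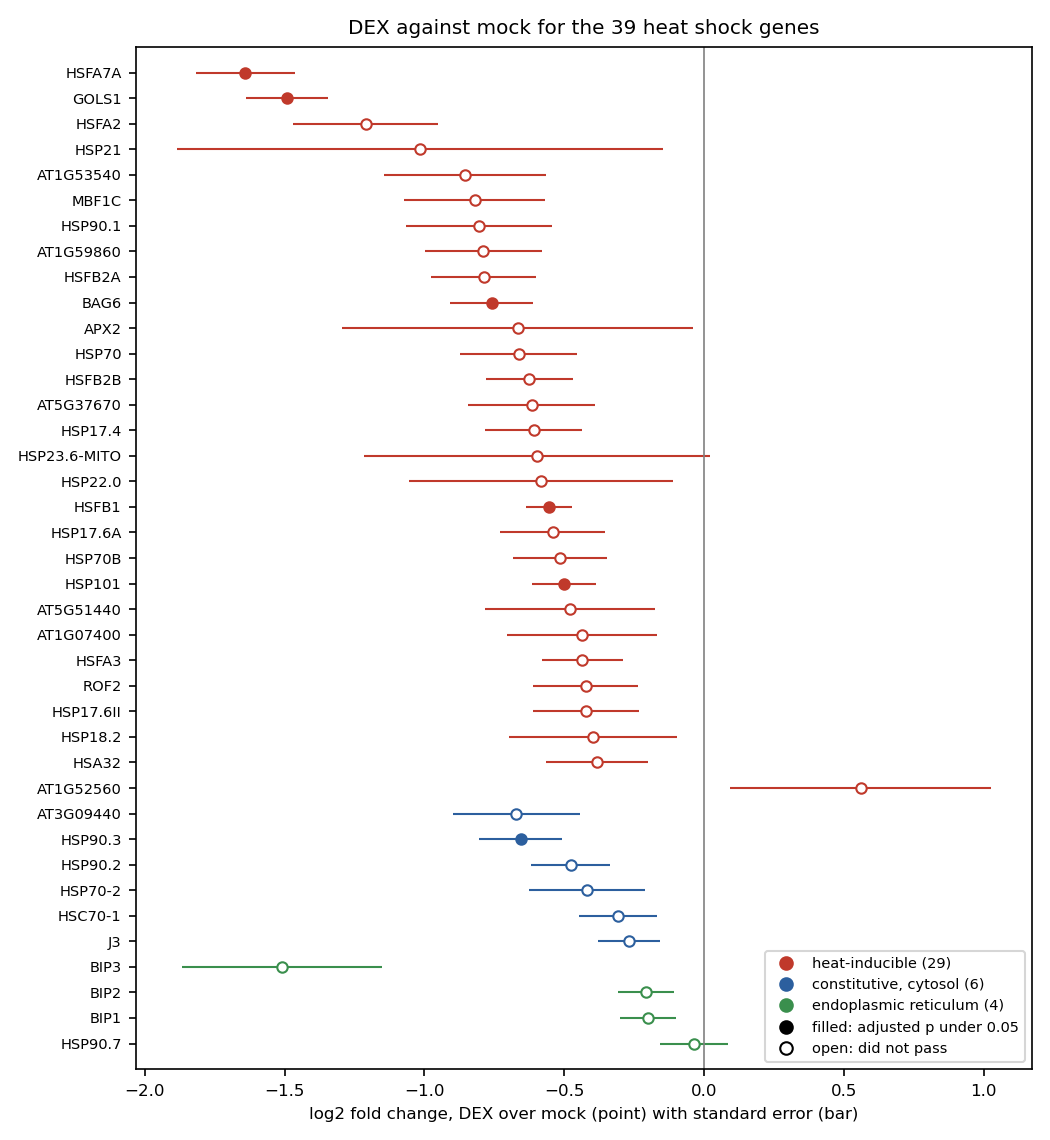
Log2 fold change, DEX over mock, of each of the 39 genes (points) with its standard error (bars), by class; filled points passed the edgeR test at an adjusted p under 0.05. Of the 39 points, 38 lie left of 0, 6 are filled, and HSFA7A and GOLS1 lie farthest left among the filled ones.

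These calls needed the run term: edgeR fitted without it called 0 members, 2 being below an unadjusted p of 0.05, and 0 of all genes. The labels' replicate numbers paired the libraries by run, and with the number as a block 4 members fell, HSFA7A, HSFB1, GOLS1 and BIP3, where 2.11% of all genes fell. HSP101, HSP90.3 and BAG6 lost their calls there, with adjusted p of 0.0867, 0.0703 and 0.0690.

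Among the regulators, 2 of 7 fell, where 3.58% of all genes fell, and the median log2 fold change was −0.79. HSFA7A (AT3G51910, chr3:19265141-19266806), a class A factor gene that heat induces, had the largest estimate of the 39. It was at 4.37, 3.56 and 13.3 CPM in mock replicates 1, 2 and 3 and at 1.06, 1.25 and 5.06 CPM with DEX. Within each run the DEX libraries were lower, though the second-run DEX library lay above the first-run mock libraries. Its log2 fold change was −1.64 ± 0.18 (adjusted p = 0.00425), which is 67.9% lower. HSFB1 (AT4G36990, RefSeq symbol HSF4, chr4:17440177-17442151), which encodes a class B repressor, was at 20.1, 19.8 and 79.7 CPM with mock and at 13.3, 12.8 and 58.3 CPM with DEX. The groups did not overlap within the first run and the second-run pair had the same order. It fell by 0.55 ± 0.08 on the log2 scale (adjusted p = 0.0119), and did not pass once DEX replicate 2 (adjusted p = 0.0609), mock replicate 1 (0.0621) or mock replicate 2 (0.0752) was dropped.

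HSFA2 (AT2G26150), the factor that prolongs acquired thermotolerance, was at 8.31, 7.71 and 34.6 CPM with mock and 2.05, 3.40 and 22.6 CPM with DEX. The first-run DEX libraries were both below both mock libraries, and the log2 fold change of −1.21 ± 0.26 did not pass (adjusted p = 0.0594), whereas a fit to first-run libraries only gave −1.54 (adjusted p = 0.0232). MBF1C (AT3G24500), a coactivator needed for thermotolerance and the regulator with the highest level per length, was at 55.2, 58.1 and 95.0 CPM with mock and 19.9, 35.4 and 72.5 CPM with DEX. An estimate of −0.82 ± 0.25 did not pass either (adjusted p = 0.162). The repressor genes HSFB2A (−0.79 ± 0.19, adjusted p = 0.0663) and HSFB2B (−0.62 ± 0.15, adjusted p = 0.0627) were close to the threshold, and HSFA3, which acts downstream of the drought factor DREB2A, had −0.44 ± 0.15 (adjusted p = 0.15). HSFB2A and HSFB2B passed with first-run libraries only (adjusted p = 0.0441 and 0.0267). In all 7 regulator genes, both first-run DEX libraries were below both first-run mock libraries, against 24.4% of all genes. The second-run DEX library was also below its mock library in all 7, against 49.9% of all genes.

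**Figure D2:**
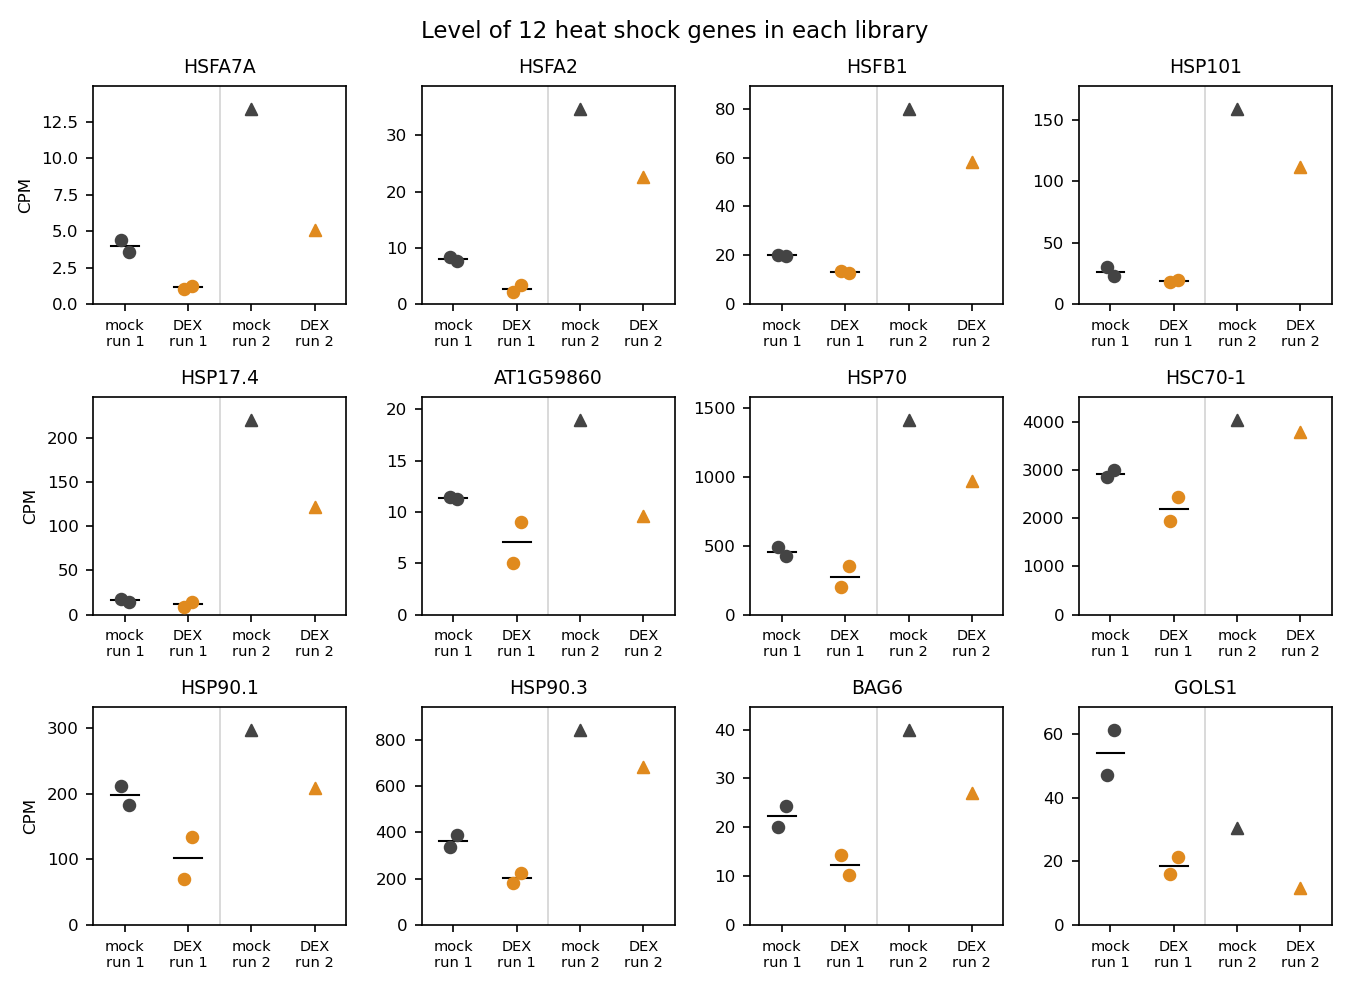
Level of 12 of the genes in each library, in CPM on an axis from 0; circles are first-run libraries with a bar at their mean, triangles the single second-run library of each group. In all 12 panels the DEX symbols lie below the mock symbols of the same run, and 11 panels are higher in the second run for mock, the exception being GOLS1. The panels do not stand for the whole list. Both first-run DEX libraries were below both mock libraries for 28 of the 39 genes, against 24.4% of all genes. The first-run groups overlapped in the other 11, none of which is shown.

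HSP101 (AT1G74310, chr1:27936508-27940369), which encodes the cytosolic disaggregase required for acquired thermotolerance, was at 30.1, 22.6 and 158.6 CPM with mock and at 18.1, 19.3 and 111.4 CPM with DEX. The order was the same in both runs, with a narrow gap in the first between 19.3 and 22.6 CPM. HSP101 fell by 0.50 ± 0.11 on the log2 scale, just inside the threshold (adjusted p = 0.0496). Leaving out any 1 library ended the call (adjusted p from 0.0593 to 0.193), as did a fit to first-run libraries only (0.157) and scaling by library totals (0.111), RLE factors (0.0525) or upper quartiles (0.0543). HSP101 overlaps AT1G74300, with which it can share reads.

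None of the 13 small heat shock protein genes passed, although 12 lay below 0 and their median was −0.58. AT1G59860, of the HSP20-like family, had the smallest p of them. It was at 11.5, 11.3 and 18.97 CPM with mock and 5.03, 9.02 and 9.56 CPM with DEX. Every DEX library was below every mock library, and the log2 fold change was −0.79 ± 0.21 (adjusted p = 0.0900). AT5G51440, also HSP20-like, had the highest level per length of the 13, at 469, 474 and 352 CPM with mock and 189.9, 412 and 319.8 CPM with DEX. Its DEX replicates 1 and 2 differed 2.17-fold, and its log2 fold change was −0.48 ± 0.30 (adjusted p = 0.478).

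The cytosolic genes HSP17.4, HSP17.6II and HSP17.6A had log2 fold changes of −0.61 ± 0.17, −0.42 ± 0.19 and −0.54 ± 0.19 (adjusted p = 0.111, 0.293 and 0.182). HSP17.4, whose upstream elements are printed above, was at 17.45, 14.5 and 220.9 CPM with mock and 9.09, 13.8 and 122.5 CPM with DEX. Its level therefore differed far more between the runs than between the treatments. The chloroplast gene HSP21, at 4 to 68 counts per library, had −1.02 ± 0.87 (adjusted p = 0.602), and its DEX replicates 1 and 2 differed 8.57-fold. The ER gene HSP22.0, at 8 to 42 counts, had −0.58 ± 0.47 (adjusted p = 0.571). The mitochondrial HSP23.6-MITO was at 29.6 CPM in DEX replicate 1 and 127.9 CPM in DEX replicate 2, 4.31-fold apart and on either side of the first-run mock levels of 121.9 and 91.9 CPM. In the first run, both DEX libraries were below both mock libraries for 5 of the 13 genes, against 24.4% of all genes. The opposite order held for 0 (21.4% of all genes), and the groups overlapped in the other 8. AT1G59860, AT1G53540 and HSP17.4 passed when DEX replicate 2 was dropped (log2 fold changes of −1.09, −1.21 and −0.82, adjusted p of 0.0281, 0.0283 and 0.0381) and with DESeq2, and the former pair also with limma-voom.

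Of the 5 cytosolic HSP70 genes none passed, and the median log2 fold change was −0.52. HSP70 (AT3G12580, also called HSP70-4), which heat induces, was at 487, 422 and 1413 CPM with mock and 198, 353 and 967 CPM with DEX. The DEX libraries were lower within each run, and the estimate was −0.66 ± 0.21 (adjusted p = 0.142). HSC70-1 (AT5G02500), the main constitutive HSP70 of the cytosol, was at 2849, 2994 and 4037 CPM with mock and 1945, 2439.9 and 3776 CPM with DEX. The estimate was −0.31 ± 0.14 (adjusted p = 0.282). HSP70B had −0.52 ± 0.17, AT3G09440 −0.67 ± 0.23 and HSP70-2 −0.42 ± 0.21 (adjusted p = 0.149, 0.168 and 0.349). DESeq2 called HSP70 and AT3G09440 (adjusted p = 0.0194 and 0.0254), and edgeR called HSP70B when DEX replicate 1 was dropped (−0.70, adjusted p = 0.0180). In all 5 genes the first-run DEX libraries were both below the first-run mock libraries, against 24.4% of all genes. In the second run HSP70-2 did not differ in that way, with 228 CPM in the mock and 231 CPM in the DEX library.

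Of the 3 HSP90 genes 1 fell, where 3.58% of all genes fell. This was HSP90.3 (AT5G56010, RefSeq symbol HSP81-3, chr5:22681238-22684252), a constitutive cytosolic HSP90. It was at 335, 386 and 839.6 CPM with mock and at 181, 223 and 683 CPM with DEX. The DEX libraries were lower within each run. The log2 fold change was −0.66 ± 0.15 (adjusted p = 0.0477), and the call was lost when any first-run library was left out (0.0600 and 0.139 without DEX replicates 1 and 2, 0.137 and 0.202 without those of mock), and with scaling by library totals (0.0875).

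HSP90.2 (AT5G56030), likewise constitutive, was at 593, 640.2 and 1249 CPM with mock and 353, 470.5 and 1038 CPM with DEX. That gave a log2 fold change of −0.48 ± 0.14 (adjusted p = 0.107). The heat-inducible HSP90.1 (AT5G52640) was at 212, 183 and 296 CPM with mock and 69.4, 134 and 208 CPM with DEX. The log2 fold change of −0.81 ± 0.26 did not pass (adjusted p = 0.174), and it did without DEX replicate 1, at −0.53 (adjusted p = 0.0253). The summed level of the 3 HSP90 genes was 1140, 1209 and 2385 CPM with mock and 603, 828 and 1929 CPM with DEX, 39.1% lower in the first run and 19.1% lower in the second. HSP90.2 and HSP90.3 share sequence: 94.1% of aligned transcript bases were identical, and 17.3% of the 50-base words of HSP90.3 also occurred in HSP90.2 and 14.7% in HSP90.4, so counts of these genes are uncertain to the extent that reads were shared.

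Of the 4 ER chaperone genes none passed, and the median log2 fold change was −0.20. BIP3 (AT1G09080), the ER HSP70 that is low until the ER is stressed, was at 1.68, 3.94 and 5.51 CPM with mock and 0.89, 1.32 and 1.51 CPM with DEX. The groups did not overlap, and the log2 fold change was −1.51 ± 0.36 (adjusted p = 0.0586, and 0.0385 with the replicate block). BIP1 (AT5G28540), which has the highest mean level per length of the ER genes over the 6 libraries, was at 254, 279 and 443 CPM with mock and 241, 213 and 401 CPM with DEX. For BIP1 the estimate was −0.20 ± 0.10 (adjusted p = 0.335), and for BIP2, 96.8% identical to it over aligned bases, −0.21 ± 0.10 (adjusted p = 0.316). HSP90.7 (RefSeq symbol SHD), the HSP90 of the ER, was at 285, 286 and 352 CPM with mock and 327, 249.5 and 319.5 CPM with DEX, with overlapping groups and an estimate of −0.04 ± 0.12 (adjusted p = 0.908).

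Of the 3 co-chaperone genes, BAG6 alone fell, where 3.58% of all genes fell. BAG6 (AT2G46240, chr2:18986133-18990220) encodes a calmodulin-binding BAG-domain protein. It was at 20.1, 24.4 and 39.8 CPM with mock and 14.3, 10.3 and 27.0 CPM with DEX, lower with DEX within each run. Its log2 fold change was −0.76 ± 0.15 (adjusted p = 0.0324), and the call was lost with first-run libraries only (adjusted p = 0.0611) and when any library other than DEX replicate 1 was left out (0.0713 to 0.126). J3 (AT3G44110), the DNAJ partner of cytosolic HSP70 and the co-chaperone gene with the highest level per length, was at 330.0, 329 and 537 CPM with mock and 241, 264 and 524 CPM with DEX. For J3 the log2 fold change was −0.27 ± 0.11 (adjusted p = 0.235). ROF2 (AT5G48570), an FKBP-type isomerase gene, had −0.42 ± 0.19 (adjusted p = 0.287).

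GOLS1 (AT2G47180, chr2:19368798-19370478) encodes a galactinol synthase, which starts the synthesis of raffinose sugars and is a target of HSFs. It was at 47.1, 61.1 and 30.3 CPM with mock and at 16.0, 21.3 and 11.5 CPM with DEX. Every DEX library was below every mock library. GOLS1 fell by 1.49 ± 0.15 on the log2 scale, 64.4% lower (adjusted p = 0.00331), and overlaps AT2G47170. HSA32, which maintains acquired thermotolerance, had −0.38 ± 0.18 (adjusted p = 0.309). The ascorbate peroxidase gene APX2, at 2 to 32 counts per library, had −0.67 ± 0.63 (adjusted p = 0.637).

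The classes were set side by side because the receptor fusion binds HSP90. Of the 29 heat-inducible genes 5 fell, of the 6 constitutive genes 1 fell and of the 4 ER genes none did. Among all genes, 3.58% fell. The median log2 fold changes were −0.61, −0.45 and −0.20, and a difference between classes was not tested. The summed level of the heat-inducible genes was 1742, 1578 and 3745 CPM with mock and 724, 1334 and 2539.9 CPM with DEX. That was 38.0% lower in the first run and 32.2% in the second. For the constitutive genes the sums were 4843, 5153 and 8684 CPM with mock and 3038, 3915 and 7819.6 CPM with DEX. These were 30.4% lower in the first run and 9.96% in the second. A few genes weigh most in such sums. In mock replicate 1, HSP70 was at 487 and AT5G51440 at 469 of 1742 CPM, and HSC70-1 at 2849 of 4843 CPM. The ER genes summed to 725, 769.7 and 1188 CPM with mock and 744, 616 and 1074 CPM with DEX, and DEX replicate 1 lay between the first-run mock libraries.

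**Figure D3:**
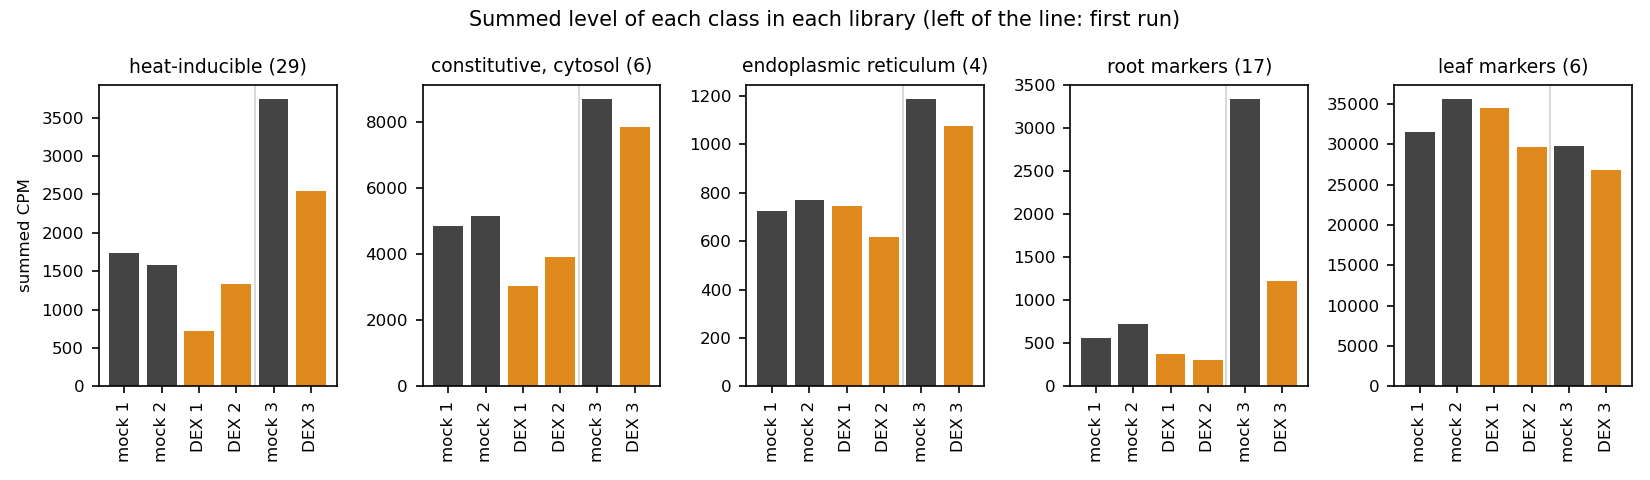
Summed CPM of the heat-inducible, constitutive and ER members and of the root and leaf marker genes in each library, first run left of the line; each bar is 1 library and starts at 0. Heat-inducible and constitutive sums are lower with DEX in both runs, the leaf sums range from 26753 to 35613, and the root sums are highest in second-run mock at 3342.

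By run, both first-run DEX libraries were below both first-run mock libraries for 28 of 39 genes, against 24.4% of all genes. The opposite order held for 0 of 39 (21.4% of all genes). DEX was lower in each of the 3 pairs of the same replicate number for 30 of 39 genes, against 20.7% of all genes, and higher in each for 1 (18.1% of all genes). Within the first run, a pairing by number was not shown. In the second-run pair, 37 of 39 were lower with DEX, against 49.9% of all genes. The median per-run log2 fold changes were −0.53 and −0.56 in the first and second runs for the heat-inducible genes, −0.61 and −0.15 for the constitutive genes and −0.23 and −0.14 for the ER genes.

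The interaction of run and treatment called 0 of 39 members and 0% of all genes (edgeR, lowest adjusted p among members 0.715). At an unadjusted p under 0.05 it picked 3 members, HSFA2, HSFB2B and HSP70B, where 2.98% of all genes were lower and 3.57% higher. The first-run and second-run log2 fold changes were −1.55 and −0.61 for HSFA2, −0.85 and −0.17 for HSFB2B, and −0.29 and −0.96 for HSP70B. For HSFA7A they were −1.78 and −1.40, and for GOLS1 −1.54 and −1.40. With 1 library per group, the second-run values have no spread of their own.

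**Figure D4:**
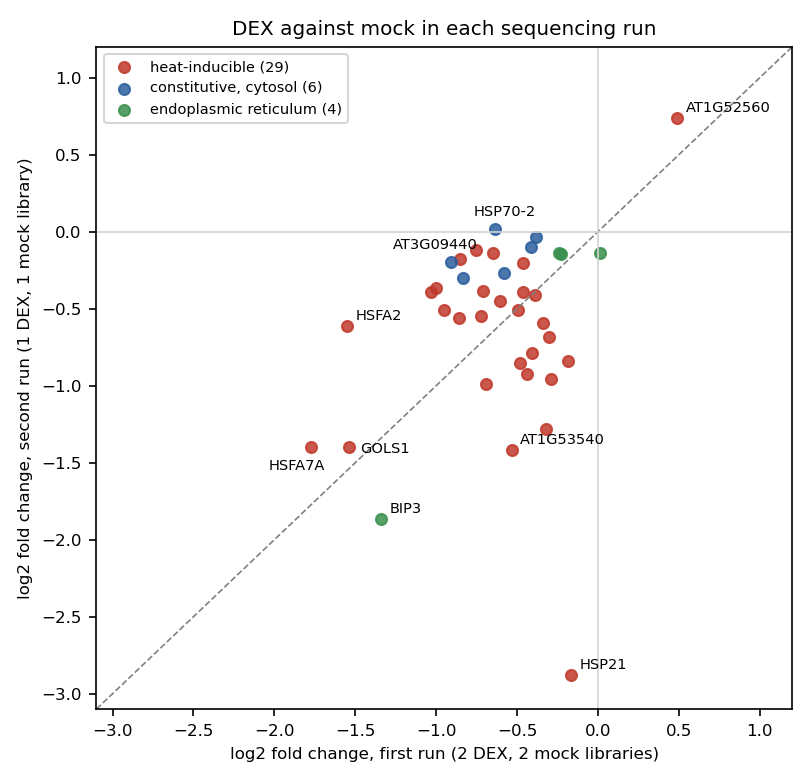
Log2 fold change, DEX over mock, of each gene in the first run (horizontal) and in the second run (vertical); the dashed line marks equal values. Most points lie in the lower left quadrant, the constitutive genes lie above the dashed line, and AT1G52560 alone is above 0 in both runs.

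The first-run DEX libraries differed from each other in these genes. DEX replicate 2 was above DEX replicate 1 for 30 of 39 members, with a median ratio of 1.38, where 46.7% of all genes were above and the median ratio was 0.984. Mock replicate 2 was above mock replicate 1 for 21 of 39, with a median ratio of 1.00. The median log2 difference of the heat-inducible genes was −0.93 in the pair numbered 1, −0.28 in the pair numbered 2 and −0.56 in the pair numbered 3. Pairs 1 and 2 rest on the labels' numbers alone. Without DEX replicate 1, the count of members that fell was 10 and without mock replicate 2 it was 2, where 3.87% and 0.958% of all genes fell.

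The levels themselves depended on the run. In the second run 26 of 39 members were higher and 3 lower than in the first (edgeR run term), where 27.9% of all genes were higher and 27.6% lower. The median log2 difference was 1.10. The largest were those of small heat shock protein genes: 3.68 for HSP17.6II, which went from 6.12, 5.76, 4.21 and 6.23 CPM in the first run to 95.0 and 53.0 CPM in the second, then 3.63 for AT1G53540 and 3.61 for HSP17.4. All 7 regulator genes and HSP101 were higher in the second run, HSP101 5.99-fold. GOLS1, HSP18.2 and AT5G37670 were the 3 lower ones, by 0.77, 1.07 and 0.71 on the log2 scale. The labels give no reason for the difference in run, and root marker RNA differed in the same direction.

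Per length, HSC70-1 had the highest level in both runs, at a first-run mock mean of 1143 RPKM (CPM per kilobase of the deposited gene length). In first-run mock AT5G51440 followed at 423, then HSP90.2 at 221, AT3G09440 at 218, HSP70 at 180.2, J3 at 169 and HSP90.3 at 138 RPKM. HSP90.2 and AT3G09440 were not ordered beyond their spread, at 213 and 229.6 RPKM against 208 and 228 RPKM in the 2 libraries. In the second-run mock library the order was HSP70 at 561, AT3G09440 at 557, HSP90.2 at 448, HSP90.3 at 321 and AT5G51440 at 316 RPKM. APX2 was lowest in first-run mock at 0.31 RPKM.

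Intron reads, which come mostly from unspliced transcripts, gave a second count in the same libraries for 19 members with enough of them, and 8 members had none. Of the 19, 18 had a log2 fold change below 0, against 49% of all genes, with a median of −0.67, where that of all 12989 genes tested was 0.01. HSFA7A alone passed, where 0.616% of all genes fell (edgeR adjusted p under 0.05). Its introns held 34, 40 and 42 counts in the mock libraries and 8, 7 and 21 with DEX. The intron log2 fold change was −1.65 ± 0.37 (adjusted p = 0.0441), beside −1.64 in exons, and it did not pass without the run term (1.00), with the replicate block (0.0890), with scaling by library totals (0.0510) or without any 1 library (0.0581 to 0.199).

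GOLS1 introns held 24, 50 and 15 counts with mock and 6, 11 and 1 with DEX, a log2 fold change of −2.19 ± 0.55 (adjusted p = 0.0756). For ROF2 it was −0.85 ± 0.22 (adjusted p = 0.0798). HSP90.3 introns held 44, 79 and 18 counts with mock and 7, 7 and 18 with DEX, so the difference lay in the first run (−1.89 ± 0.50, adjusted p = 0.107). HSP90.3 introns passed when a second-run library was dropped, at −2.84 (adjusted p = 0.0155 without DEX replicate 3 and 0.0166 without mock replicate 3). BAG6, at 3 to 15 intron counts, was the one of the 19 above 0.

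**Figure D5:**
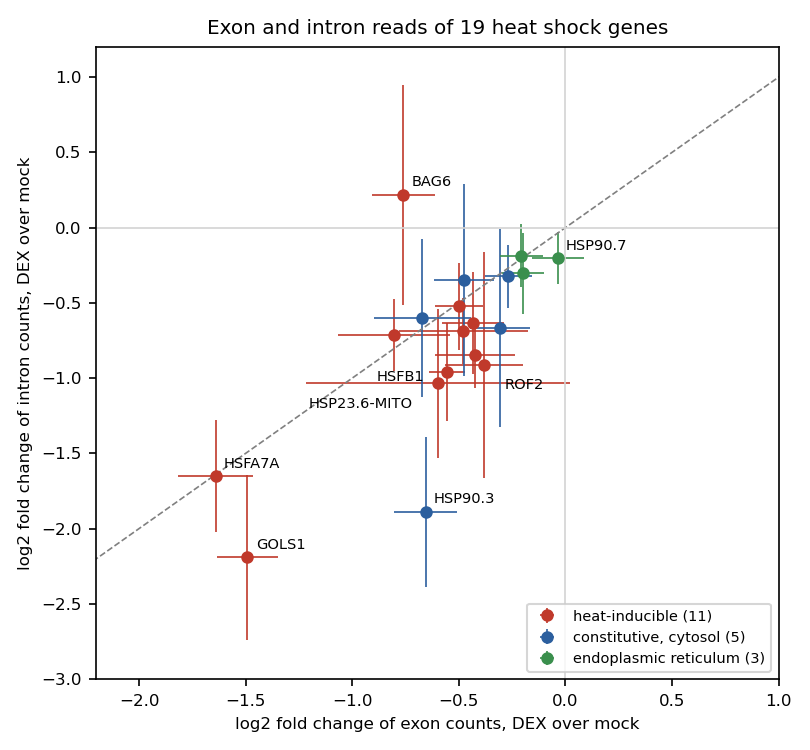
Log2 fold change, DEX over mock, of exon counts (horizontal) against intron counts (vertical) for the 19 genes tested on both, with standard errors as bars; the dashed line marks equal values. HSFA7A lies near the line at −1.64 and −1.65, 18 of 19 points lie below 0 on the intron axis, and HSP90.3 lies well below the line.

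Other genes of the same families, listed from textbook knowledge, were examined beside the members. Of 57 listed, 52 were tested, 4 fell and 0 rose, where 3.58% of all genes fell and 1.09% rose. Their median log2 fold change was −0.07. The 11 other HSF genes tested gave 0 calls at a median of 0.02, with values from −1.71 to 0.33. All 6 further ER folding genes gave 0 calls at a median of −0.06. The 6 further small heat shock protein genes lay lower, with 1 that fell, 5 below 0 and a median of −0.34, and their summed level was 40.9% lower with DEX in the first run and 27.9% in the second. Of the 11 further HSP70 and DNAJ genes tested, 2 fell and 9 were below 0, at a median of −0.09. The 13 HSP90 relatives and partners had 1 that fell and a median of −0.06. For the 5 CLPB and DREB2 genes there were 0 calls in exons, with values from −1.02 to 0.18 and a median of 0.09. Of 4 of these tested in introns, 1 fell, where 0.616% of all genes did. The HSP90 partner gene SGT1A (−0.46 ± 0.11, adjusted p = 0.0491), the HSP70-like HSP70T-2 (−0.63 ± 0.11, adjusted p = 0.0212), ATERDJ3A (−0.76 ± 0.15, adjusted p = 0.0281), a DNAJ gene, and the HSP20-like AT4G21870 (−0.87 ± 0.17, adjusted p = 0.0362) were the 4 that fell.

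Grouped by the upstream sequences printed above, the 5 members with a 3-unit heat shock element had a median log2 fold change of −1.21, with 2 called. The other 34 had a median of −0.53, with 4 called. Among all genes, 3.58% fell. All 5 were heat-inducible, and the 24 heat-inducible members without the element had a median of −0.57, with 3 called. The 13 members with a 2-unit match had a median of −0.67 and the other 26 of −0.51. All 13 were heat-inducible too, and the 16 heat-inducible members without a match had a median of −0.57. These differences were not tested.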

How the data were processed

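RNA from 6 libraries, 3 with DEX and 3 mock, was sequenced after library preparation with the TruSeq RNA v2 kit, an unstranded protocol, per the labels. The deposited files hold raw read counts per gene in exons, in introns and in total, with a gene length in bases under another unit, per the file headers. The submitters' processing notes list STAR and DESeq2 but no versions. Not given in the sources used here are the counter, annotation and genome build. Without strand, reads of overlapping genes cannot be told apart, and 8 members overlap another listed locus (HSFA3, HSFB2B, MBF1C, HSP101, HSA32, HSP17.4, AT3G09440 and GOLS1).

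The test of exon counts over all genes was that of edgeR 4.0.16, under R 4.3.3 (TMM, filterByExpr at min.count 10 and min.total.count 15, quasi-likelihood F-test with robust dispersions, run and treatment as terms, Benjamini-Hochberg adjustment at 0.05), and only the members' rows are given. Intron counts and the interaction of run and treatment were tested in the same way. Standard errors are the log2 fold change divided by the root of F. Per-run log2 fold changes come from the interaction fit. Names, overlaps and upstream sequence came from RefSeq on TAIR10.1, which held all 39 members. Coordinates are that annotation's own. Shared sequence was counted as 50-base words between the longest transcripts of 85 genes of these families. Alternatives were DESeq2 1.42.0, limma-voom (limma 3.58.1), other scalings and filters, exon plus intron counts, no run term, the replicate number as a block, first-run libraries only, and leaving out each library. Deviations from the group means correlated between libraries of equal number (r = 0.63, 0.61 and 0.88 over genes for numbers 1, 2 and 3), so the block is reported. This shows a pairing by run, and a pairing by number within the first run was not shown. By chi-square per degree of freedom over genes, DEX replicate 1 was nearer to mock replicate 2 (110.7) than to mock replicate 1 (152.0). DEX replicate 2 was nearer to mock replicate 1 (107.0) than to mock replicate 2 (154.4). The test was also run on simulated counts drawn with a dispersion trended on level. Those counts lacked the spread particular to each gene, so they do not vouch for calls in these libraries.

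Values in every library are given for members that passed, for the member of each role with the smallest p and with the highest level per length, and for HSFA2, HSP101, HSP70, HSP90.1, HSC70-1, HSP90.2 and BIP3. Other values are given where a sentence needs them, chosen after they were seen. The members, classes and lists were chosen with earlier results of these data known.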

Additional observations from a re-analysis of the deposited data

How the results depend on the processing

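The number of members that fell was 6, and it was 18 with DESeq2 (6.70% of all genes fell), 11 with limma-voom (4.59%), 0 without the run term, 4 with the replicate block (2.11%) and 2 to 10 when 1 library was left out. HSFA7A and GOLS1 passed under every alternative except the one without the run term. No member rose under any of them. Besides BIP3, HSP101, HSP90.3 and BAG6, the replicate block changed no member's call in exons. Over the members and alternatives, 586 of 661 single-gene values kept their direction and their side of the threshold, 37 came to pass and 33 ceased to pass. The 5 that changed sign all belonged to HSP90.7, near 0 throughout, at 0.024 with first-run libraries only, 0.0016 with library totals, and −0.17 to 0.062 with 1 library left out (above 0 on dropping DEX replicate 2, or either second-run library). In introns the count of members called was 1, and it was 0 with library totals, without the run term and with the replicate block, 5 with no filter and 0 to 1 with 1 library left out, that 1 being HSP90.3. The cause of these shifts was not tested. HSP21, HSP22.0, AT1G52560 and APX2 each had under 70 counts per library, and their standard errors, 0.47 to 0.87, also hold the spread between libraries.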
